A study of Mus musculus with 23 samples.

Results

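Endogenous retroviruses of the ERVL family, other than the mouse-specific MERVL elements and their MT2 promoters, were described in spinal cord RNA of a tauopathy mouse. Members were all repeat subfamilies whose family field was exactly ERVL, without MERVL-int, MT2_Mm, MT2A, MT2B, MT2B1, MT2B2 and MT2C_Mm. This rule left 104 of the 1135 subfamilies in the table and removed 7 of the 111 ERVL rows. It used names only and no measured value. Of the 104 members, 13 were internal parts of the element, which once held the viral genes, and the others were long terminal repeats (LTRs). The rule kept MERVL_2A-int, whose name places it with MERVL, and 8 members carried MERVL or rodent name stems (MERVL, RMER, RLTR), so the set is neither free of MERVL by name nor made up only of elements named for mammals at large.

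ERVL elements are class III endogenous retroviruses, distantly related to foamy viruses, that entered mammalian genomes before the mammalian orders split and lack an envelope gene. Most copies have been reduced to single LTRs, which can carry promoter and enhancer sequence and often lie inside genes or their untranslated ends. A read assigned to a subfamily can therefore come from an element's own transcript or from repeat sequence carried in another RNA, and these were not told apart here.

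The samples were whole spinal cord lysates of PS19 mice, which carry a mutant human tau transgene driven by the mouse prion protein promoter. The PS19 animals were heterozygous offspring of founders from the Jackson Laboratory, bred at Baylor College of Medicine, and controls were their wild-type littermates. There were 6 control and 7 PS19 samples at 9 months, and 5 control and 5 PS19 samples at 4 months, with no sex or batch in the labels. Polyadenylated RNA was read as stranded pairs. A value is the authors' normalized read number, that is, reads of a subfamily divided by a size factor of the sample. None of 16 marker genes of spinal cord cells or of tau was found in the table, which lists repeats (0 of 16), so the tissue label and the transgene were not checked.

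At 9 months each sample held 338090 to 590194 repeat reads, and each 4-month sample 529522 to 2168280. Of these, 5062 to 8161 per sample at the older age and 8218 to 36492 at the younger were assigned to members. At 4 months the samples stood in sets: replicates 1 to 3 of both genotypes were higher than replicates 4 and 5 in the mean of 914 of 920 tested subfamilies and of 86 of 86 tested members, with a median log2 difference of 1.96 for the members and 1.93 for all. The difference was smallest for LTR40c (0.32) and LTR33A_ (0.52) and was 3.60 for LTR101_Mam. These sets were seen in the values and follow the sample numbers, and no label explains them. The sample numbers of PS19 replicates 1 to 5 at 9 months all precede those of the controls, and replicates 6 and 7 are numbered among or just after them.

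Members differed widely in level, and a few supplied much of the signal. The 5 highest members made up 40.7% of the member signal at 9 months. The leading members were LTR50 and RMER15, a rodent LTR, and their order differed between the genotypes. LTR50 had a mean of 974 ± 152 normalized reads (SD, n = 6) in control and 666 ± 119 (SD, n = 7) in PS19 at 9 months, and RMER15 had 746 ± 75.4 and 896 ± 141. The next were MERVL_2A-int, MER21C and MER21B with means over all 9-month samples of 330.4, 281 and 260.9. At the other end, 42 members had a mean under 10 at 9 months. LTR32 and LTR108b_Mam had 0 reads in all 13 samples at 9 months, which allows up to 0.532 reads per 1000000 repeat reads, counting error only.

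A mean of at least 10 over all 23 samples was required for testing, which 86 members passed and 18 did not. LTR69 lay just outside at 8.73 and LTR80B just inside at 10.3. Since 4-month values were higher, 24 tested members had a mean under 10 at 9 months and passed through the 4-month samples. By name stem, the tested members were 10 of 10 MLT2, 11 of 12 LTR16, 5 of 5 LTR33, 29 of 41 other LTR names, 15 of 20 MER, 4 of 4 RMER and 12 of 12 others, the last being mostly internal parts. MLT2, LTR16 and LTR33 are LTRs of old elements shared among mammals, and RMER marks rodent names. Close subfamilies of a stem may have exchanged reads in counting, and their values are not independent.

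As a share of all repeat signal, members held 1.62% ± 0.071 (SD, n = 5) in control and 1.62% ± 0.051 (n = 5) in PS19 at 4 months. At 9 months the share was 1.51% ± 0.033 (n = 6) in control, with a range of 1.46 to 1.55%, and 1.39% ± 0.025 (n = 7) in PS19, with a range of 1.37 to 1.44%. Every PS19 share at 9 months lay below every control share. Non-overlapping shares were seen for 1.3% of the 920 single subfamilies at that age. That rate is for single rows and is not a background for a sum of many. No test was made of a sum over members. In bulk tissue, fewer cells of a type and less RNA per cell cannot be told apart.

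**Figure D1:**
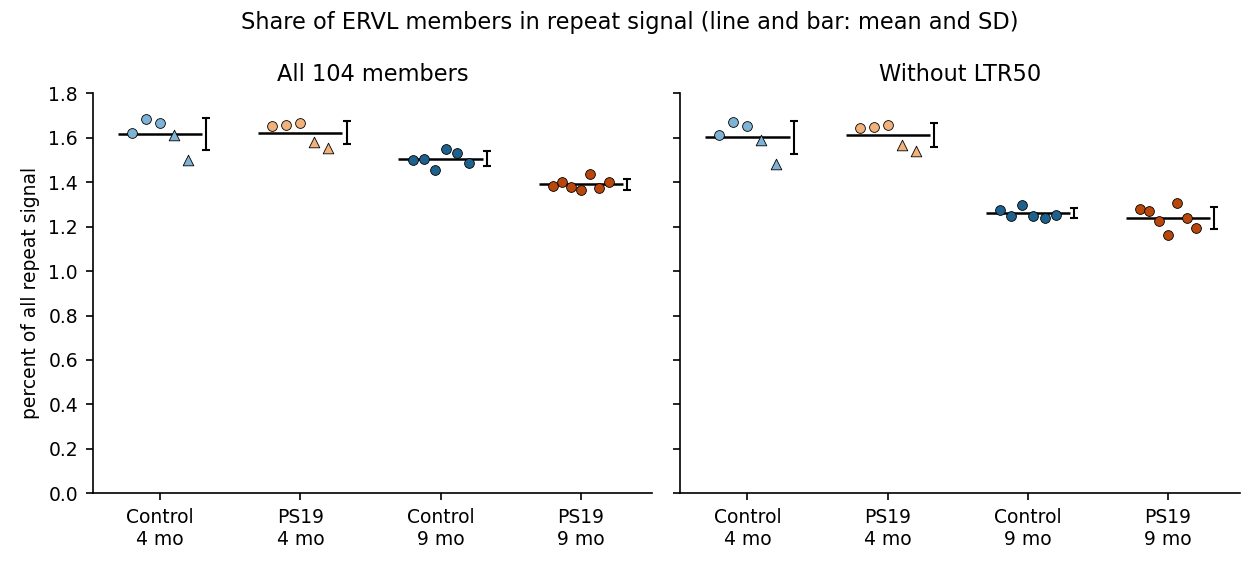
Share of the 104 members in all repeat signal (percent) for each sample of the 4 groups, with all members on the left and without LTR50 on the right. Points are samples, triangles the 4-month replicates 4 and 5, lines means and bars SD. The 9-month genotypes separate on the left (1.51% against 1.39%) and overlap on the right (1.26% against 1.24%).

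The summed values did not separate. The member sum at 9 months was 6073 ± 359 normalized reads in control, from 5680 to 6739, and 6229 ± 657 in PS19, from 5396 to 7464. The separation in share was not seen without LTR50. With this LTR left out, a choice made after its values were seen, the share was 1.26% ± 0.021 in control (1.24 to 1.30%) and 1.24% ± 0.051 in PS19 (1.16 to 1.31%), and the groups overlapped. LTR50 held 16.2% ± 3.1 of the member signal in control and 10.9% ± 2.9 in PS19 at 9 months, against 0.88% and 0.71% at 4 months.

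The comparison of PS19 with control at 9 months asks which members differed in older transgenic animals. Of the 86 tested members, 2 passed the threshold (limma, Benjamini-Hochberg adjusted p under 0.05 over all 920 subfamilies): RLTR28 was higher in PS19 and LTR50 was lower. Over all subfamilies 3.37% passed, with 3.04% higher and 0.326% lower, so the members' count lies near the background. The median log2 fold change was 0.13 for the members and 0.19 for all subfamilies. It was positive in 60 and negative in 26 members, against 690 and 230 of all. An unadjusted p under 0.05 was reached by 15 members (11 higher, 4 lower) and by 17.8% of all subfamilies.

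RLTR28 is a rodent LTR. Its control values at 9 months were lowest at 107.1, median 115.9 and highest 127.4 normalized reads. The PS19 values were lowest at 153.3, median 198.2 and highest 226.8. All 7 PS19 samples lay above all 6 controls, and the controls lay close together. The means were 117 ± 6.59 in control and 190.8 ± 26.2 in PS19, a log2 fold change of 0.70 ± 0.13 (SE) with an adjusted p of 0.0048 in limma. RLTR28B, which shares the name stem, did not pass. Its means were 37.6 ± 16.7 in control and 39.8 ± 18.6 in PS19, and the 95% interval of its log2 fold change ran from -0.64 to 0.71, which includes the value of RLTR28.

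LTR50 went the other way. Its control values at 9 months were lowest at 739.7, median 963.7 and highest 1183.3. The PS19 values were lowest at 544.2, median 627.9 and highest 853.1. Of the 7 PS19 samples, 5 lay below every control, and the 2 highest overlapped the lowest control. The log2 fold change was -0.55 ± 0.12 (SE, limma adjusted p = 0.0144). Per 1000000 repeat reads, LTR50 had 2442 ± 513 in control and 1519 ± 394 in PS19.

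Some choices of samples ended both calls. With PS19 replicates 1 to 5 left out, which keeps only the 2 PS19 samples numbered among or just after the controls, RLTR28 had a log2 fold change of 0.66 (limma adjusted p = 0.397) and LTR50 of -0.40 (adjusted p = 0.529). In the fit of all 23 samples, where the variable 4-month samples enter the spread, both had a limma adjusted p of 0.9997. LTR50 also lost its call without control replicate 4 (limma adjusted p = 0.0521) and with no filter on low values (0.0656), while RLTR28 kept it in all 13 fits that left out 1 sample.

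**Figure D2:**
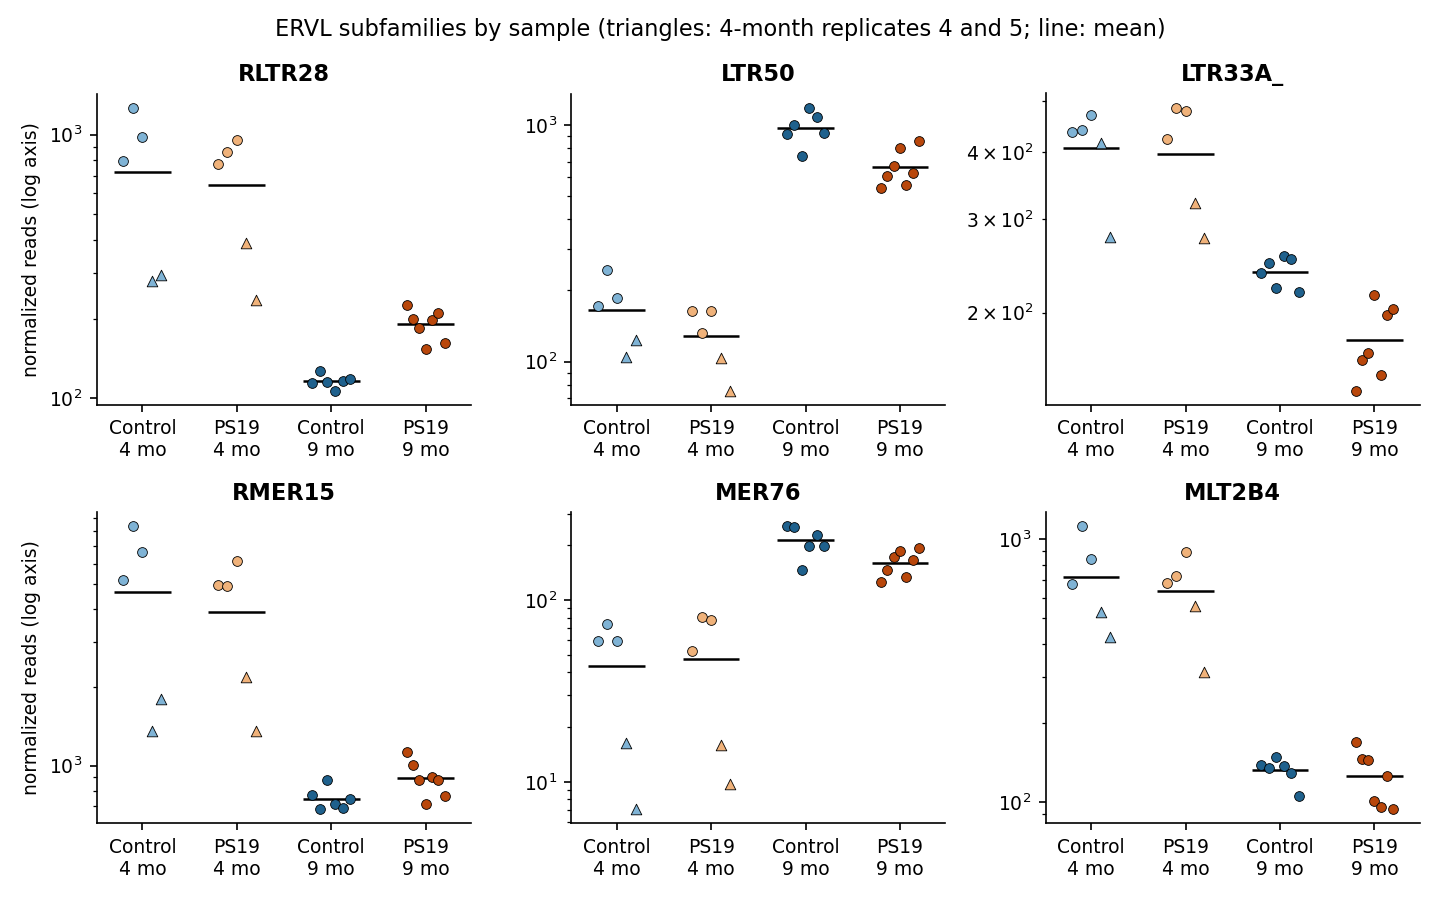
Normalized reads (log axis) of RLTR28, LTR50, LTR33A_, RMER15, MER76 and MLT2B4 in each sample of the 4 groups. Points are samples, triangles the 4-month replicates 4 and 5, and lines means. At 9 months RLTR28 separates upward in PS19 (153.3 to 226.8 against 107.1 to 127.4) and LTR33A_ downward (142.7 to 216.0 against 218.6 to 255.1), while LTR50 overlaps.

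LTR33A_, an LTR33 subfamily, did not pass but did not overlap either in normalized reads. Its control values were lowest at 218.6, median 242.4 and highest 255.1. The PS19 values were lowest at 142.7, median 168.0 and highest 216.0. Every PS19 sample lay below every control, with a log2 fold change of -0.44 ± 0.13 (SE, limma adjusted p = 0.0562). Among the members, 1 separated upward and 1 downward in normalized reads (RLTR28 and LTR33A_), against 1.3% of all subfamilies in either direction.

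The 4 RMER members, RMER15 among them, are rodent LTRs and 1 internal part. All 4 had a positive difference and 0 passed, with a median log2 fold change of 0.22. Over all subfamilies, 690 of 920 were positive and the median was 0.19. Scaled to equal repeat totals, RMER15-int was at -0.03, RMER10A at 0.05, RMER15 at 0.11 and RMER10B at 0.46. RMER10B came nearest at 0.61 ± 0.17 (SE, limma adjusted p = 0.0516), from means of 90.7 ± 18.9 in control and 139 ± 31.3 in PS19. It falls outside the naming rule and was chosen after its values were seen. RMER15 had a log2 fold change of 0.25 ± 0.11 (adjusted p = 0.216). Its control values ran from 680.4 to 883.4 with a median of 725.8, and its PS19 values from 712.5 to 1132 with a median of 880.3. The groups overlapped, with 3 of 7 PS19 samples above every control. RMER10A had 0.19 ± 0.15 (adjusted p = 0.483).

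Among the old mammalian LTRs, none of the MLT2, LTR16 or LTR33 members passed (0 of 10, 0 of 11 and 0 of 5). MLT2 members had a median log2 fold change of 0.12, with 7 positive and 3 negative. MLT2B4, the highest of them, had 132 ± 14.6 in control and 125 ± 29.6 in PS19, and its interval ran from -0.44 to 0.23. MLT2B1 had 0.27 ± 0.20 (limma adjusted p = 0.448). LTR16 members had a median of 0.09, LTR16A2 having 0.19 ± 0.21 and LTR16D1 -0.26 ± 0.18 (adjusted p = 0.603 and 0.409). LTR33 members had a median of 0.23, and LTR33C had -0.18 ± 0.17 (adjusted p = 0.547).

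MER members also gave 0 of 15 calls, with a median of 0.13. MER21C had 252 ± 32.7 in control and 306 ± 64.2 in PS19, a log2 fold change of 0.26 ± 0.14 (limma adjusted p = 0.316). MER21B had 284 ± 20.9 and 241 ± 39.1, a log2 fold change of -0.25 ± 0.12 (adjusted p = 0.292), with 4 of 7 PS19 samples below every control. MER76 had 214 ± 41.1 and 161 ± 26.1, a log2 fold change of -0.40 ± 0.15 (adjusted p = 0.152). The 2 MER21 subfamilies thus had values on opposite sides of 0 and neither passed. The internal parts gave 0 of 10 calls with a median of 0.21, among them MERVL_2A-int at 0.28 ± 0.18 (adjusted p = 0.383). LTR67B, the second of the other LTR names, had 0.04 ± 0.15 (adjusted p = 0.908).

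**Figure D3:**
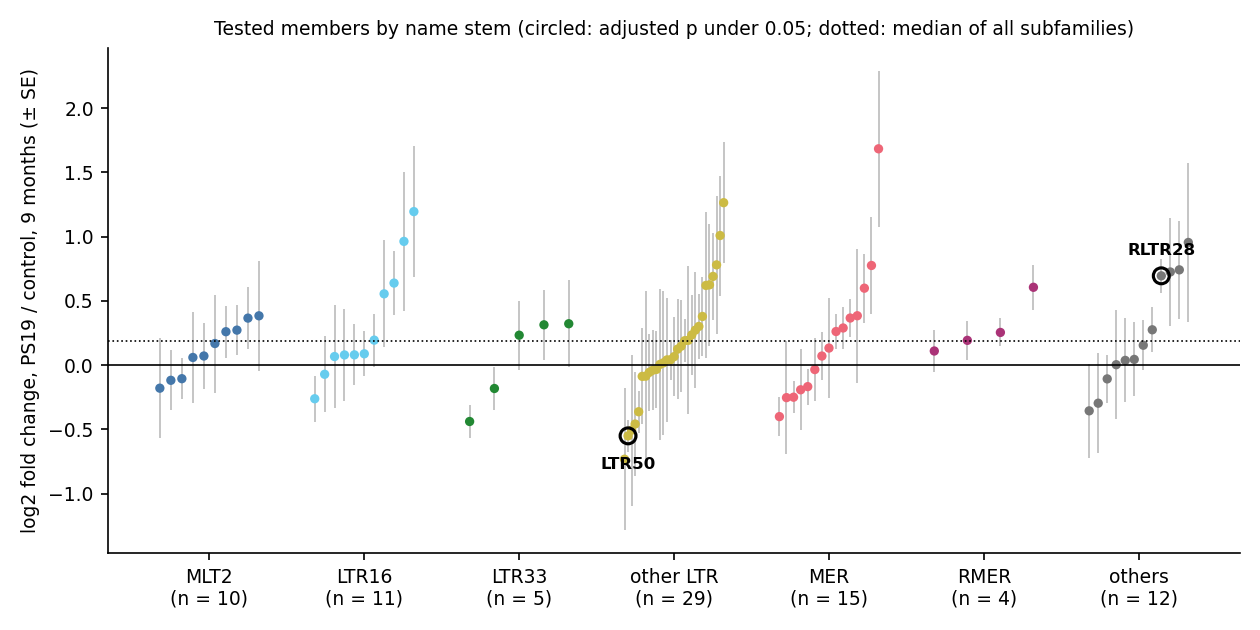
Log2 fold change of PS19 against control at 9 months (vertical axis, bars SE) for the 86 tested members, sorted within each name stem. RLTR28 (0.70) and LTR50 (-0.55) are circled as past the threshold, and the dotted line marks the median of all 920 subfamilies (0.19).

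Scaling every sample to the same total repeat signal changed the balance of these calls. It moved the median of all subfamilies from 0.19 to 0.05 and the members' median from 0.13 to 0.00. On this scale 1 member was higher (RLTR28, 0.55, limma adjusted p = 0.0056) and 3 were lower. The lower ones were LTR50 (-0.70, adjusted p = 0.0169), LTR33A_ (-0.58, adjusted p = 0.0342) and MER21B (-0.39, adjusted p = 0.0342). Of all subfamilies 1.3% were higher and 1.2% lower on this scale. On the recovered reads, edgeR gave 1 higher and 2 lower members (0.761% of all subfamilies in each direction), and DESeq2 gave 2 higher and 2 lower (4.46% and 0.435% of all).

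Related repeats gave these counts in the same fit. The 7 MERVL and MT2 rows outside the rule had 0 calls and a median log2 fold change of 0.09. ERVL-MaLR, the sister group with nonautonomous MaLR elements, had 3 higher and 0 lower of 91 with a median of 0.19. ERVK, the largest of the related families, had 9 higher and 1 lower, and ERV1 had 8 higher and 0 lower of 95. No test of a difference between the members and these lists was made.

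At 4 months, 0 of 86 members passed in PS19 against control, with 0% of all 920 subfamilies called in limma. The numbers of members with an unadjusted p under 0.05 were 0 in limma, 2 in edgeR (0.87% of all subfamilies) and 0 in DESeq2, and neither count test made a call among them. The median log2 fold change was -0.10 for the members and -0.08 for all subfamilies. It was -0.27 among replicates 1 to 3 alone and 0.17 among replicates 4 and 5 alone, so its sign differed between the sets. No member's groups were separated in normalized reads (0 of 86, against 0% of all).

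The 2 members that passed at 9 months gave wide intervals at 4 months. LTR50 control values were 172.3, 243.9, 186.2, 104.5 and 123.9, and PS19 values were 164.5, 132.8, 163.9, 103.3 and 75.6. The groups overlapped, with a log2 fold change of -0.37 ± 0.52 (SE) and an interval from -1.46 to 0.72. RLTR28 control values were 793.0, 1266, 982.3, 278.9 and 293.8, and PS19 values were 777.4, 857.2, 957.0, 387.0 and 235.7. In both genotypes the last 2 values were the low ones, and the log2 fold change was -0.09 ± 0.59 (SE) with an interval from -1.34 to 1.15. The members with the smallest p in each direction were MER88 (0.82) and LTR108a_Mam (0.36), and LTR16D (-0.87) and MLT2E (-0.58), all with a limma adjusted p near 1 (0.9999).

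Between 4 and 9 months nearly all members stood lower at the older age on the deposited scale, as nearly all repeats did. In control, 4 of 86 members rose and 68 fell (limma), against 6.09% higher and 79.3% lower over all subfamilies. In PS19, 5 rose and 67 fell, against 6.09% and 77%. The 24 tested members with a mean under 10 at 9 months passed the filter through their 4-month samples. For them the filter favoured a fall, here and in the age counts and medians below that use it. The same filter applied to all subfamilies. The median log2 fold change was -2.25 in control and -1.87 in PS19 for the members, and -2.14 and -1.83 for all. Of all subfamilies, 85.4% passed in control and 83% in PS19 in either direction. The ages were also apart in sample number, and any difference in how they were prepared or scaled cannot be told apart from age.

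The split between rises and falls depended on the scale. Scaled to equal repeat totals, which moved the median of all subfamilies to -0.60 in control and -0.56 in PS19, 17 members rose and 46 fell in control (24.7% and 51.3% of all). In PS19, 14 rose and 41 fell on that scale (22.9% and 50.2%). With 4-month replicates 4 and 5 alone, 13 rose and 41 fell in control (16.3% and 50.2%) and 10 rose and 39 fell in PS19 (14% and 50.2%). In edgeR, 19 rose and 31 fell in control (30.5% and 35.5%) and 19 rose and 27 fell in PS19 (31.2% and 30.8%).

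In 9 settings that tested all 86 members with different scales, pseudocounts, low-value filters, tools or 4-month samples (the stricter filter at 50 tests fewer), 4 members rose in both genotypes each time: LTR50, MER76, LTR16D1 and LTR33C. Of all 920 subfamilies, 4.89% did so. The 4 members come from 4 different stems. LTR50 rose from a mean of 166 ± 54.9 to 974 ± 152 in control, a log2 fold change of 2.59 ± 0.30 (SE, limma adjusted p = 8.96e-08), and from 128 ± 38.7 to 666 ± 119 in PS19, 2.41 ± 0.29 (adjusted p = 2.37e-07). Its highest 4-month value, 243.9, lay below its lowest 9-month value, 544.2. Scaled to equal totals the rises were 4.16 and 3.70.

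MER76 had control values of 59.8, 73.7, 59.9, 16.3 and 7.08 at 4 months and PS19 values of 52.4, 80.8, 77.3, 15.9 and 9.75. At 9 months it ran from 146.9 to 255.6 in control, median 214, and from 125.3 to 192.98 in PS19, median 167. The ages did not overlap, and the log2 fold change was 2.68 ± 0.52 in control and 2.14 ± 0.50 in PS19 (limma adjusted p = 3.71e-05 and 0.000356). LTR16D1 rose by 2.65 ± 0.45 in control and 2.08 ± 0.43 in PS19, from means of 17.2 and 17.8 to 90.5 and 75.3. LTR33C rose by 2.23 ± 0.48 and 1.93 ± 0.46, from means of 34.0 and 31.3 to 122 and 108. The fifth rise in PS19 was LTR86A2 (1.61 ± 0.72, adjusted p = 0.0405), which had 1.47 ± 0.75 in control (adjusted p = 0.067).

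These 4 members had negative PS19 differences at 9 months, -0.55 for LTR50, -0.40 for MER76, -0.26 for LTR16D1 and -0.18 for LTR33C, of which only LTR50 passed. The age and genotype comparisons share the 9-month control samples, so these values are not independent of each other.

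**Figure D4:**
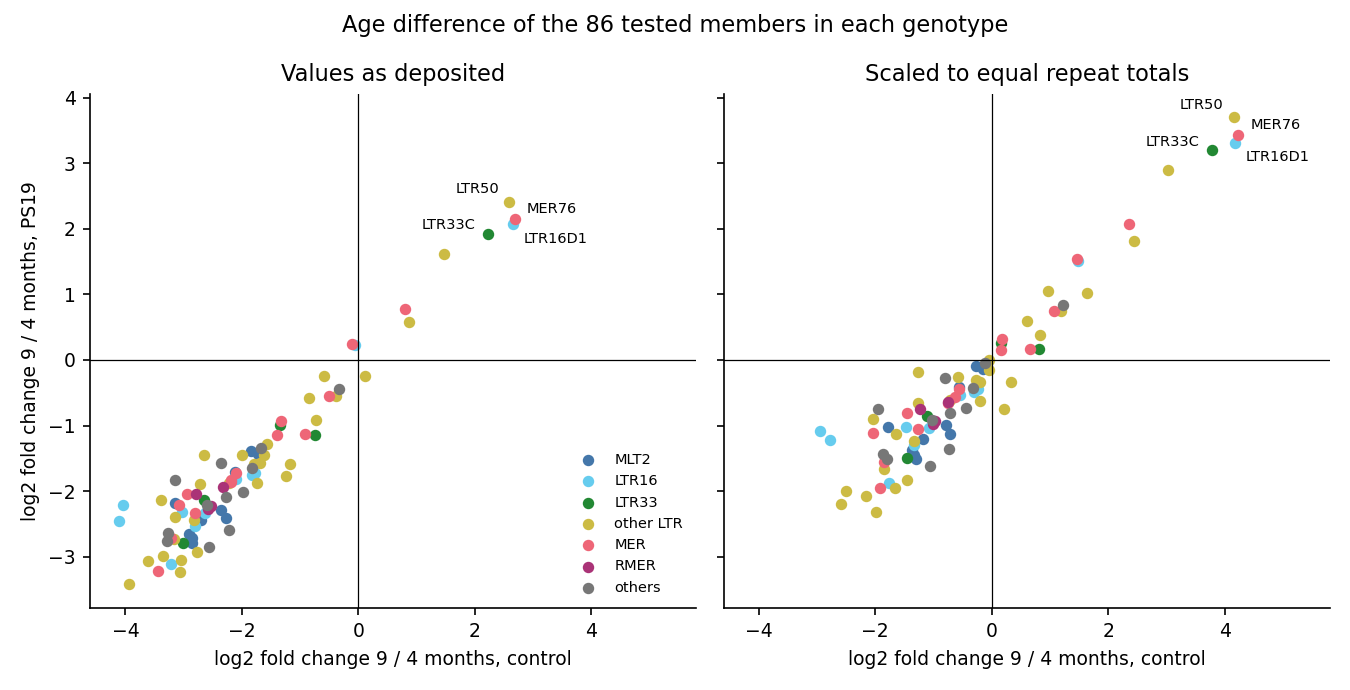
Log2 fold change of 9 against 4 months in control (horizontal) and PS19 (vertical) for the 86 tested members, coloured by name stem, on deposited values (left) and scaled to equal repeat totals (right). LTR50, MER76, LTR16D1 and LTR33C lie at the upper right on both scales, and all members, these included, shift up and right with scaling.

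Members that fell in both genotypes in all 9 settings numbered 9 of 86, against 15.2% of all subfamilies. All 4 RMER members were among them (RMER10A, RMER10B, RMER15 and RMER15-int), with LTR16C, LTR33, MER77, MLT2D and MERVL_2A-int. RMER15 had 5176, 8367, 6628, 1359 and 1798 in control and 4957, 4942, 6147, 2194 and 1364 in PS19 at 4 months. Replicates 4 and 5 were the low ones, yet all 10 values lay above the highest 9-month value, 1132. Its log2 fold change was -2.32 ± 0.41 in control and -1.94 ± 0.39 in PS19 (SE, limma adjusted p = 1.42e-05 and 0.000103), and -0.75 and -0.63 after scaling.

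MERVL_2A-int fell by 2.60 ± 0.40 on the log2 scale in control and by 2.22 ± 0.38 in PS19, and RMER15-int by 2.58 ± 0.39 and 2.27 ± 0.37. All 10 MLT2 members fell in both genotypes on deposited values, MLT2B4 by 2.35 ± 0.32 and 2.28 ± 0.31, but 1 of 10 (MLT2D) did so in all 9 settings. At a mean of at least 50 over all samples, the lowest age differences were those of LTR40b (-3.94 in control, -3.42 in PS19), MER77B (-3.44 and -3.21) and ERVL-int (-3.29 and -2.76). These members reached that mean through their 4-month samples, so the choice favours falls, and they are given as a description. LTR40b had few reads at 9 months, from 0 to 20.2 normalized reads in control and from 3.74 to 13.7 in PS19.

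Some members changed sign with scaling and have no stated age direction here. LTR33A_ was at -0.75 in control and -1.14 in PS19 as deposited, and at 0.82 and 0.16 when scaled. LTR67B went from -0.38 and -0.54 to 1.18 and 0.75, and MER21B from -0.91 and -1.13 to 0.66 and 0.17. LTR16A2 was at -0.07 in control and 0.23 in PS19 as deposited, and at 1.49 in control when scaled. As deposited, the ages did not overlap for 4 members upward and 39 downward in control (52.1% of all subfamilies in either direction) and for 4 and 37 in PS19 (48.2%).

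The make-up of the member signal, which does not depend on a sample's scale, also differed between the ages. RMER members held 34.1% ± 2.03 of it in control and 33.6% ± 1.399 in PS19 at 4 months, and 20.1% ± 1.63 and 23.5% ± 1.45 at 9 months. Other LTR names, LTR50 among them, went from 9.35% ± 0.490 and 9.52% ± 0.281 to 25.2% ± 2.97 and 20.3% ± 2.88. The other members of that stem held 8.47% ± 0.709 and 8.81% ± 0.095 at 4 months and 9.01% ± 0.403 and 9.42% ± 0.619 at 9 months. These are percentages of the member sum with LTR50 still in it. With LTR50 taken out of the sum as well they would be higher, more so at 9 months, where LTR50 held more. MLT2 held 11.4% ± 1.28 and 11.1% ± 0.522 at 4 months and 7.08% ± 0.690 and 7.43% ± 0.705 at 9 months, while MER went from 16.3% and 16.7% to 22.4% and 22.3%. LTR16 stood between 5.93% and 6.43% in all 4 group means. These shares add up to the whole, so a larger share of one stem lowers the others, and no test was made of them.

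**Figure D5:**
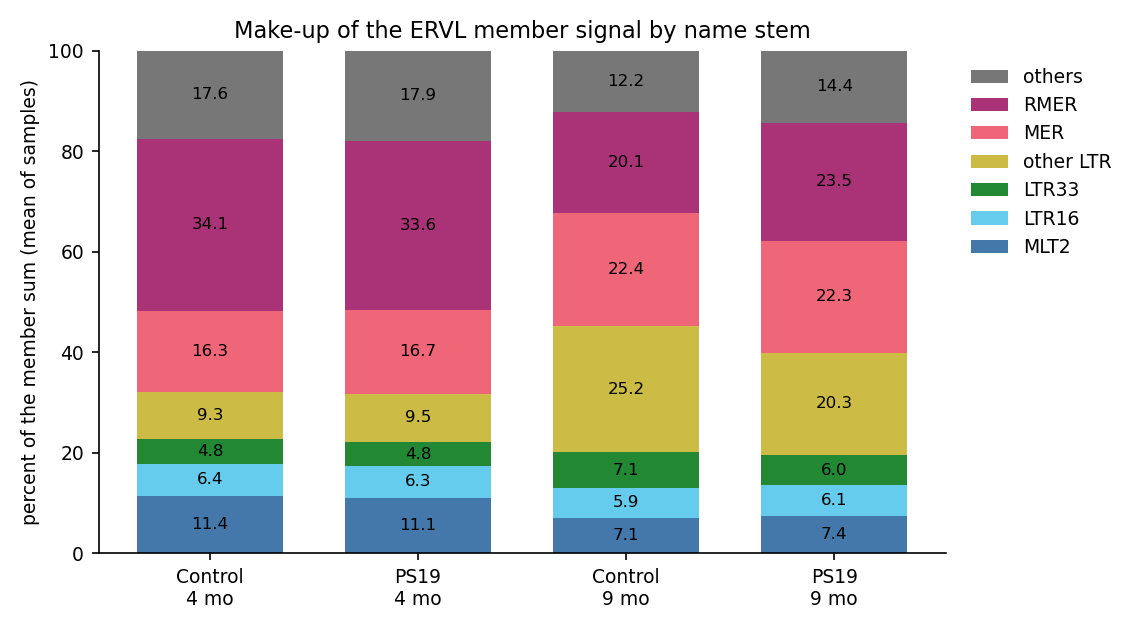
Make-up of the member signal by name stem (percent of the member sum, mean of the samples of each group), 4 months on the left and 9 months on the right. RMER shrinks from 34.1% to 20.1% in control while other LTR names grow from 9.35% to 25.2%. The part of the latter that is not LTR50, not drawn apart, went from 8.47% to 9.01% of the member sum with LTR50 still in it.

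The genotype difference at 9 months minus that at 4 months was tested as an interaction over all 23 samples. None of the members passed in limma, edgeR or DESeq2 (0 of 86, with 0% of all subfamilies in limma), and 0, 5 and 0 members had an unadjusted p under 0.05 (0.87% of all subfamilies in limma and 5.76% in edgeR). The members' median was 0.29, against 0.27 for all subfamilies. RLTR28 had an interaction of 0.79 ± 0.54 (SE, limma adjusted p = 0.997) and LTR50 of -0.18 ± 0.41 (adjusted p = 0.997). The interval for RLTR28 ran from -0.31 to 1.89. In the fit that took the sets at 4 months into account, the difference was 0.79 on the log2 scale and its SE was 0.24 (limma unadjusted p = 0.0021, adjusted p = 0.280), and the adjusted p was 0.217 with equal repeat totals and 0.201 in edgeR. None of these fits passed the threshold. RLTR28 and LTR50 are given because they passed at 9 months. The interaction contains that same 9-month difference, so its values are not independent of those calls. The members with the smallest p were LTR16D (1.83) and LTR16B2 (1.65) upward, and LTR16D1 (-0.58) and LTR33A_ (-0.39) downward.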

How the data were processed

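The table gives a normalized signal for each repeat subfamily and sample, which the authors deposited after dividing reads by size factors. Trimmomatic, STAR, DESeq2 and build mm10 are listed in the submitters' processing notes, with no version. How repeats were counted, how reads mapping to many copies were handled, and whether both ages were scaled together is not given in the sources used here. Repeat sequences and positions were not used here. All 23 columns matched a sample title (0 unused). Every value was a whole multiple of a read within 0.1 percent of a read (100 percent of values in each column), which gave the reads behind it. No pair of samples within a group agreed within counting noise (lowest chi-square per degree of freedom 3.80). Nothing in the labels numbers the replicates, so they were numbered in accession order and not paired, and p-values measure the spread between these samples.

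In R 4.3.3, limma 3.58.1 (empirical Bayes, variance trend) was run on log2(value + 1) for subfamilies with a mean of at least 10 (920 tested, 215 not). The 9-month and 4-month genotype comparisons used the samples of that age, and the age and interaction contrasts used all 23 with a mean per group. The age and interaction fits took a shared spread for both ages, although the 4-month samples varied more. The main fits had no term for the sets at 4 months, so the SE and p-values of the age differences carry this limit. P-values were adjusted by Benjamini-Hochberg over all 920, threshold 0.05. Fold changes on this scale understate low subfamilies. Alternatives were other pseudocounts and filters, equal repeat totals, count tests of the recovered reads (edgeR 4.0.16; DESeq2 1.42.0), other sets of samples, and leaving out each sample. Some of the fits were run on simulated reads that had 9-month levels and spread in every sample and no sets at 4 months. The simulation therefore cannot show how the fits behave with the real 4-month samples. Named members were the 2 highest at 9 months in each stem, up to 5 past the threshold per comparison (otherwise 4 of smallest p in each direction, or 2 in each where none passed), the 3 highest and 3 lowest age differences at a mean of at least 50, and those beside the filter. The members and lists were chosen with earlier results of these data known.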

Additional observations from a re-analysis of the deposited data

Results flagged for a closer look

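Over the 28 named members and the members' sum and share, each in 4 groups, 7 of 120 groups of values held a sample far from the rest, where chance gives about 1 in 20. That rate is a rough guide only, since the groups share samples and those at 4 months hold the sets described above. Of the 7, 4 lie in control samples at 9 months. In control replicate 3 at 9 months, MER21C had 316.8 normalized reads against 228.2 to 250.0 in the others, and MERVL_2A-int had 423.9 against 242.7 to 296.2. The PS19 differences of both members at 9 months passed neither with nor without that sample. Control replicate 2 at 9 months had 28.1 for MER77B against 7.46 to 14.7. LTR69, which lies under the filter, had 3.73 in control replicate 1 at 9 months against 0 to 1.10, and 4.68 in PS19 replicate 4 at 9 months against 0 to 1.83. At 4 months, LTR33A_ had 277.3 in control replicate 5 against 416.9 to 469.7, and replicate 4 stood with replicates 1 to 3. MER88, which has few reads, had 60.03 in PS19 replicate 3 at 4 months against 15.4 to 26.9.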

How the results depend on the processing

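At 9 months 2 members passed, and the count was 1 with no filter, 4 with a filter at 50, 4 with equal repeat totals, 4 in DESeq2, 0 in the fit of all 23 samples, 0 without PS19 replicates 1 to 5, and 1 to 5 when single samples were left out. It was 5 without control replicate 3 or without PS19 replicate 4, 4 without PS19 replicate 7 and 1 without control replicate 4. At 4 months and for the interaction, 0 members passed in every setting run. Age calls (72 in each genotype) numbered 37 in control and 37 in PS19 with a filter at 50, where 46 members were tested. They numbered 42 and 38 with 4-month replicates 4 and 5 scaled to equal totals, 46 in PS19 with edgeR, and 69 to 78 in control and 66 to 76 in PS19 with single samples left out. The median age difference in control was -0.72 with equal totals, -0.31 in edgeR, -1.16 with 4-month replicates 4 and 5 alone and -0.74 with both choices. In PS19 it was -0.65, -0.13, -0.99 and -0.61. The cause of these moves was not tested, beyond that equal totals remove the difference in total signal between the ages. Without RMER15 the 9-month member sums were 5327 in control and 5333 in PS19, and without LTR50 they were 5098 and 5563. Member shares without RMER15 were 1.31%, 1.31%, 1.32% and 1.19% (control and PS19 at 4 months, then at 9 months), without MERVL_2A-int 1.47%, 1.48%, 1.43% and 1.31%, and without LTR50 1.26% and 1.24% at 9 months. The named members whose age difference changed sign, with a call in at least 1 of the fits compared, are listed next. Members that were not named also changed sign and are not listed. For example, MER74A in control was at -0.50 as deposited and at 1.07, with a call, with equal totals. In control, with equal totals, LTR16A2 was at 1.49, LTR33A_ at 0.82, LTR67B at 1.18, MER21B at 0.66 and LTR108a_Mam at 0.34. In edgeR, MLT2B1 was at 0.16, LTR16A2 at 1.90, LTR33A_ at 1.02, LTR67B at 1.57, MER21B at 1.05 and LTR108a_Mam at 0.82. With 4-month replicates 4 and 5 alone, LTR16A2 was at 1.26 and LTR67B at 1.13, and scaled as well LTR16A2 was at 1.76, LTR67B at 1.64 and MER21B at 1.07. In PS19, with equal totals, LTR33A_ was at 0.16, LTR67B at 0.75 and MER21B at 0.17. In edgeR, MLT2B1 was at 0.34, LTR33A_ at 0.57, LTR67B at 1.19, MER21B at 0.59, RLTR28 at 0.15 and LTR108a_Mam at 0.028. With 4-month replicates 4 and 5 scaled, MLT2B1 was at 0.063, LTR67B at 0.81, MER21B at 0.39 and LTR16D at 0.17. Of the other values of the named members under an alternative, 2799 kept their sign and their side of the threshold, 178 changed sign with no call in either fit, 51 lost a call and 18 gained one. Alternatives with 4-month replicates 1 to 3 or 4 and 5 alone, the combined scaling, and sums without LTR50 or MERVL_2A-int were chosen after seeing the data. No paired analysis was possible because the labels carry no shared replicate numbers. Depth limits the 42 members under 10 normalized reads at 9 months.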
